A study of Homo sapiens with 6 samples.

Results

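The 10 genes described here encode the enzymes that place and remove methyl groups on lysine 27 of histone H3 (H3K27) and the subunits that work with the writer. They are EZH1, EZH2, EED, SUZ12, JARID2, AEBP2, MTF2 and PHF19 of Polycomb repressive complex 2 (PRC2), and the demethylases KDM6A and KDM6B. They were found by name in the deposited table, as 10 of the 60664 genes listed. The rule uses no measured value, but it was written with earlier results of these data known. The libraries came from 67R cells, an NCI-H1975 lung adenocarcinoma line selected for resistance to the EGFR inhibitor ASK120067, so all libraries share that resistance. Of the 6 libraries, 3 came from cells given a negative control siRNA (siNC) and 3 from cells given siRNA against BCAT1 (siBCAT1), the transaminase that interconverts branched-chain amino acids and their keto acids. The labels do not say whether the numbered libraries came from separate cultures, so p-values measure the spread between these libraries, which may be technical. In the study's methods the name siBCAT1 stands for the second of its BCAT1 siRNAs, siBCAT1-2. The comparison asks whether the genes of the H3K27 methylation machinery themselves changed in expression when BCAT1 was lowered.

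PRC2 is the only known source of H3K27 trimethylation in mammalian cells, a mark of silenced genes. EZH2 or its paralog EZH1 carries the catalytic SET domain, SUZ12 holds the complex together, and EED binds the trimethyl mark and stimulates the enzyme. One form of PRC2 contains a Polycomb-like protein (PHF1, MTF2 or PHF19) and another contains JARID2 and AEBP2, and these accessory subunits direct the complex to chromatin. KDM6A (also called UTX) and KDM6B (JMJD3) remove the mark with oxygen, iron and α-ketoglutarate, the last of which the BCAT1 reaction uses or forms, depending on its direction.

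Of the 10 genes, 3 passed the test, with KDM6A lower and PHF19 and EZH2 higher in siBCAT1 cells. This share is near the background, since 27.1% of all tested genes were called, 16.7% as higher and 10.4% as lower. KDM6A was lowered to 0.711 times its siNC mean, PHF19 was raised 1.40-fold and EZH2 1.17-fold. The summed level of both demethylase genes had overlapping groups, while KDM6A went from the higher of the pair to the lower. The core genes SUZ12 and EED and the accessory genes MTF2, JARID2 and AEBP2 did not pass, nor did EZH1 and KDM6B. KDM6A alone was called when any 1 siBCAT1 library was left out, so the calls of PHF19 and EZH2 rest on all 3 of them.

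EZH2 is a known target of the E2F transcription factors of dividing cells, and the members' promoter windows were searched for the letters of the E2F site. A window ran from 250 bases before to 50 bases after a RefSeq gene start (GRCh38.p14), and the 8-letter words were TTTCCCGC, TTTGGCGC, TTTCGCGC and TTTGCCGC on either strand. All 10 genes matched a promoter by symbol, with 14 windows between them. A word was found at 6 of the 10 genes and in 42.9% of their windows, against 6.94% of the 9975 tested genes with a promoter and 5.13% of their windows. The stretches of 30 bases that hold the words are shown on the strand of the gene with the word in capitals, so that the members sharing the letters can be compared:
EZH2, chr7:148884272-148884301, minus strand: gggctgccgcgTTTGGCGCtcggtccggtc
MTF2, chr1:93079277-93079306, plus strand: accggcagtccGCGGGAAAccaaaatggcg
PHF19, chr9:120877322-120877351, minus strand: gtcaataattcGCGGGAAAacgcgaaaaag
SUZ12, chr17:31936807-31936836, plus strand: cgacccctaatTTTCCCGCgaattcagttc
EZH1, chr17:42745137-42745166, minus strand: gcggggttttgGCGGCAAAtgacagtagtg
AEBP2, chr12:19440438-19440467, plus strand: caaggcgacgtTTTGCCGCgatccccctgc
EZH2 and PHF19 each have another window without a word. Counting the gene start as base 1, the word begins at base 2 in EZH2 and at base 6 in MTF2, and it begins 152 bases before the start in PHF19, 189 in SUZ12, 115 in EZH1 and 150 in AEBP2. No such word lies in the windows of EED, JARID2, KDM6A and KDM6B. Of the 6 genes with a word, EZH2 and PHF19 were called, and MTF2, SUZ12, EZH1 and AEBP2 were not. The members' windows had from 52.3% (EED) to 79.7% (PHF19) G and C, and the compared genes were not matched for this content. A match of letters is a description and not a binding site, and any part of the words in the changes was not tested.

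For PHF19, the most abundant member and one of those that rose, and KDM6A, the one that fell, the 250 bases before a gene start are shown in full, again with the word in capitals. RefSeq gives PHF19 another start, whose window holds no word, and the start with the word is the one shown:
PHF19, chr9:120877189-120877438, minus strand: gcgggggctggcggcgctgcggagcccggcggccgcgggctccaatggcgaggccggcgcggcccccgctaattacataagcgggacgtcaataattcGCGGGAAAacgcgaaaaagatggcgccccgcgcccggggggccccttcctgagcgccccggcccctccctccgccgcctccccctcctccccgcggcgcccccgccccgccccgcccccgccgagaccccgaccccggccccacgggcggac
KDM6A, chrX:44872938-44873187, plus strand: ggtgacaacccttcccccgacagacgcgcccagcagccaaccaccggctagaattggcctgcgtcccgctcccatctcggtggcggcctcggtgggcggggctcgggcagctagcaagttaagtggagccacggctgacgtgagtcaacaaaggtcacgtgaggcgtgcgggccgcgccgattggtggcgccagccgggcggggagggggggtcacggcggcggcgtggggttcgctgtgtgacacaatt
Over 300 bases, this PHF19 window had 79.7% G and C, the other PHF19 window 76.0% and the KDM6A window 66.3%.

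The values are TPM, transcript abundances relative to the length of the gene and to the total of the library, so the levels of different genes can be set side by side. Values of single libraries are given below in the order of replicates 1, 2 and 3. BCAT1 itself had 42.7, 42.2 and 29.8 TPM in the siNC libraries and 8.78, 7.10 and 8.0 TPM in the siBCAT1 libraries, a log2 fold change of -2.12 (adjusted p = 0.000272 from limma). Throughout, log2 fold changes are siBCAT1 minus siNC on the scale of log2(TPM + 1), which understates changes of weakly expressed genes, and the adjusted p is from limma with Benjamini-Hochberg adjustment over 14286 tested genes. All 10 members were above the filter of a mean of 1 TPM. Read counts cannot be had from TPM, which leaves the total depth unknown, and precision rests on the spread over 3 libraries. The libraries listed between 23152 and 25043 genes above 0 TPM. Epithelial keratin genes were abundant, yet the lung lineage markers NKX2-1, NAPSA and SFTPB had group means of at most 0.23 TPM. The summed level of the 9 epithelial and lung markers ran from 2546 to 2948 TPM in siNC and from 1648 to 1936 TPM in siBCAT1 libraries, with 5 of the 6 tested lower, against 10.4% of all tested genes. The leading falls were in CDH1 (log2 fold change -2.41), KRT19 (-1.41) and KRT7 (-0.91). The remaining tested marker, EPCAM, went the other way, from 1.27 ± 0.327 to 2.33 ± 0.334 TPM (SD, n = 3 each), and its groups did not overlap. Its log2 fold change of 0.56 did not pass (adjusted p = 0.0732 from limma). Of 12 blood, fibroblast and endothelial markers, CD3E and DCN were at 0 in all libraries, and PTPRC, PECAM1 and VWF had group means of at most 0.11 TPM. The sum of these 12 ran from 251 to 272 TPM in siNC and from 191 to 246 TPM in siBCAT1, nearly all of it COL1A2, with COL1A1 the 1 gene of 5 tested that passed, as lower (log2 fold change -0.68), a call lost under 5 of 13 alternatives (no filter, and without siNC replicate 1 or 3 or siBCAT1 replicate 2 or 3, adjusted p up to 0.0682). Markers that did not pass were named after their values were seen. The part of these marker changes in the results was not tested.

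Among the demethylases, KDM6A (chromosome X, 44873177 to 45112602 in GRCh38, with 29 exons in its principal transcript) had 13.4, 13.5 and 13.8 TPM in the siNC libraries against 9.34, 10.4 and 9.12 TPM in the siBCAT1 libraries. Every siBCAT1 library was below every siNC library, and the siNC libraries hardly differed among themselves. The means were 13.5 ± 0.225 and 9.62 ± 0.684 TPM (SD, n = 3 each). KDM6A fell by 0.45 on the log2 scale, with a standard error of 0.09 (adjusted p = 0.0104). This was the one member called under all 13 alternatives tried, with log2 fold changes from -0.51 to -0.42 and adjusted p from 0.00888 to 0.0393.

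KDM6B (chromosome 17, 7839904 to 7854796) had 8.17, 7.09 and 10.9 TPM in siNC cells and 12.4, 15.3 and 10.5 TPM in siBCAT1 cells. The groups overlapped, since siNC replicate 3 was above siBCAT1 replicate 3. The means were 8.72 ± 1.97 and 12.7 ± 2.46 TPM (SD, n = 3 each). The log2 difference was 0.50 (95% interval 0.07 to 0.93, adjusted p = 0.0847), so the call was not made. Without siNC replicate 3 the adjusted p was 0.0460, against a range of 0.0460 to 0.228 over the alternatives.

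Within a library, KDM6A was above KDM6B in all 3 siNC libraries and below it in all 3 siBCAT1 libraries. The ratio of KDM6A to KDM6B was 1.63, 1.90 and 1.26 in siNC and 0.754, 0.678 and 0.873 in siBCAT1 libraries, so the groups did not overlap. The mean log2 ratio differed by -1.04, with a two-sided exact permutation p of 0.1, the smallest that 3 libraries against 3 can give, and 0.2 after adjustment over the 4 ratios tested. The summed TPM of both demethylases was 22.3 ± 2.17 in siNC and 22.3 ± 3.13 in siBCAT1 cells (SD, n = 3 each), with overlapping groups.

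**Figure D1:**
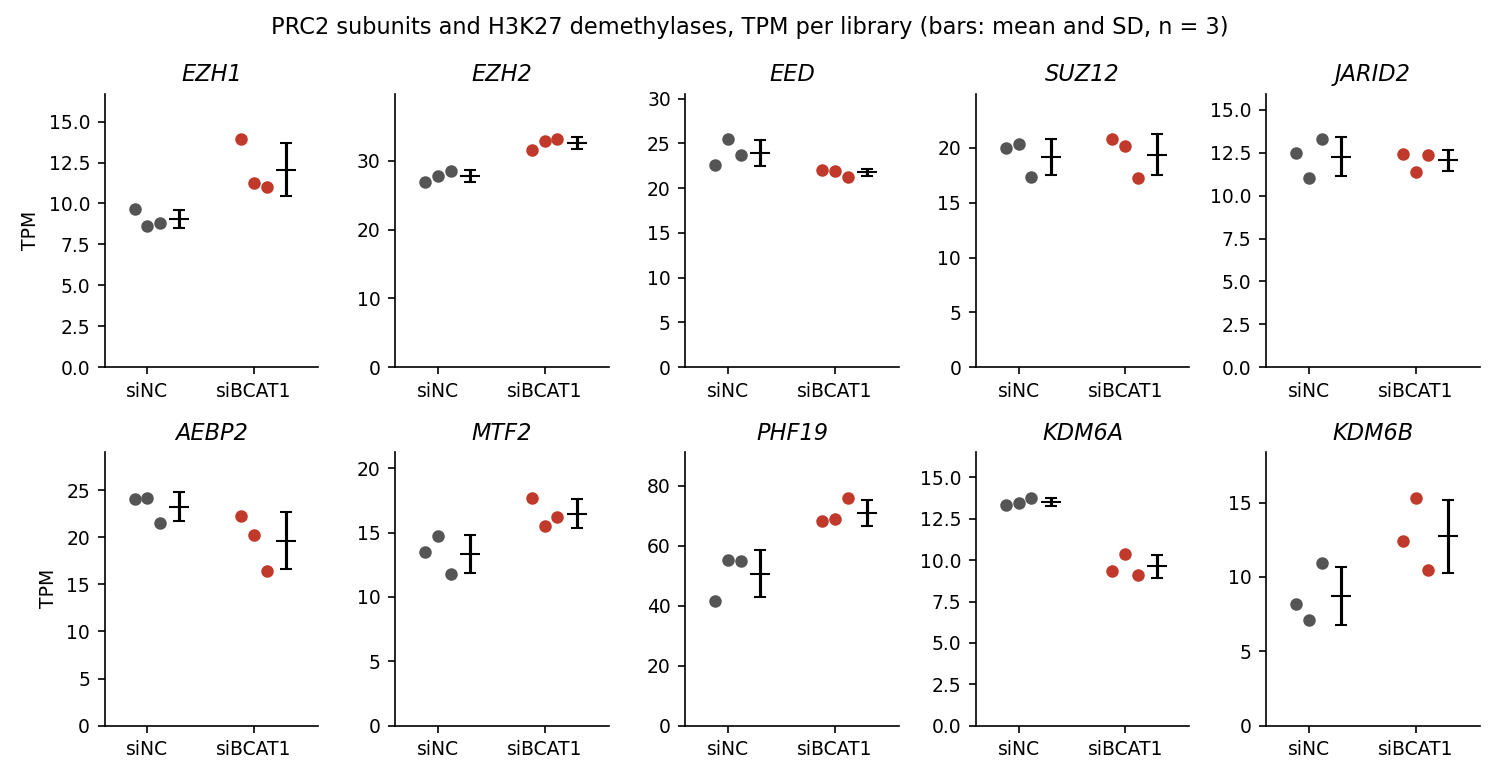
TPM (vertical axes, from 0) of each of the 10 genes in the 3 siNC (grey) and 3 siBCAT1 (red) libraries, in the order of replicates 1 to 3 from left to right, with the mean and SD in black. The KDM6A points of siBCAT1, between 9.12 and 10.4 TPM, lie below all siNC points, and those of PHF19 and EZH2 lie above them.

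Of the catalytic subunits, EZH2 (chromosome 7, 148807383 to 148884321, with 20 exons) had 26.9, 27.9 and 28.6 TPM in the siNC libraries and 31.6, 32.9 and 33.2 TPM in those of siBCAT1. All siBCAT1 libraries were above all siNC libraries, with means of 27.8 ± 0.869 and 32.6 ± 0.871 TPM (SD, n = 3 each). EZH2 rose by 0.22 on the log2 scale, with a standard error of 0.07 (adjusted p = 0.0493), close to the threshold. The call was lost under 11 of the 13 alternatives, including without any 1 of the 6 libraries. Over all 13 the adjusted p ran from 0.0397 to 0.191, while the log2 fold change stayed between 0.15 and 0.24.

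EZH1 (chromosome 17, 42700275 to 42745049, with 21 exons) had 9.67, 8.65 and 8.81 TPM in siNC cells, and 13.9, 11.3 and 11.01 TPM in siBCAT1 cells. Again the groups did not overlap, and siBCAT1 replicate 1 stood highest. The means were 9.04 ± 0.549 and 12.1 ± 1.62 TPM (SD, n = 3 each), and the log2 difference of 0.37, with a standard error of 0.12, just missed the threshold (adjusted p = 0.0504). It passed under 5 of the 13 alternatives, among them both other scalings, and not with any library left out, and the adjusted p ranged from 0.0281 to 0.134.

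EZH2 was the more abundant of the catalytic pair in every library. The ratio of EZH1 to EZH2 was 0.360, 0.310 and 0.308 in siNC and 0.441, 0.342 and 0.332 in siBCAT1 libraries. The difference in mean log2 ratio of 0.18 did not exceed the spread (two-sided exact permutation p = 0.3), and without siBCAT1 replicate 1 it was 0.05. The summed TPM of EZH1 and EZH2 was 36.5, 36.5 and 37.4 in siNC and 45.5, 44.2 and 44.2 in siBCAT1 libraries, without overlap. Set against both demethylases, this sum was 1.70, 1.78 and 1.52 times theirs in siNC and 2.09, 1.72 and 2.26 times in siBCAT1 libraries. The groups of this writer-to-eraser ratio overlapped (difference of mean log2 ratios 0.28, two-sided exact permutation p = 0.2).

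**Figure D2:**
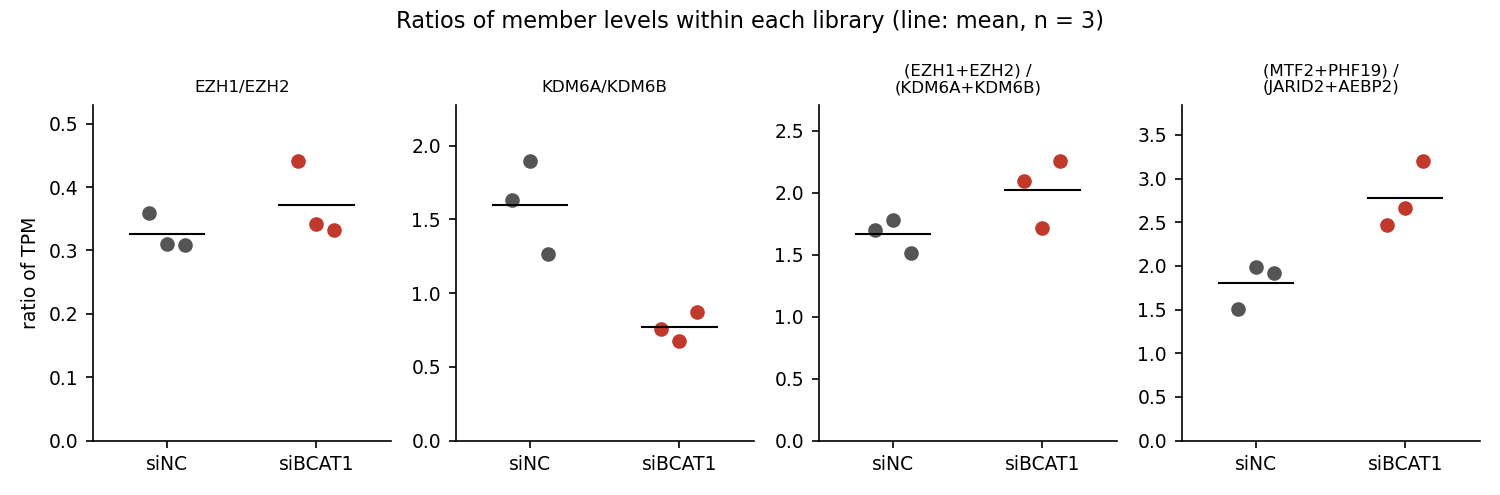
Ratios of TPM within each library (vertical axes, from 0) for EZH1 to EZH2, KDM6A to KDM6B, both EZH genes to both KDM6 genes, and MTF2 plus PHF19 to JARID2 plus AEBP2, with a line at the mean of 3 libraries. The siBCAT1 points lie wholly below the siNC points for KDM6A to KDM6B and wholly above them for the accessory subunits.

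Neither of the other core subunits passed the test. EED (chromosome 11, 86244544 to 86278813) had 22.6, 25.5 and 23.7 TPM in siNC against 22.1, 22.0 and 21.3 TPM in siBCAT1 libraries. Its groups did not overlap, but the log2 fold change of -0.13 (95% interval -0.31 to 0.05, adjusted p = 0.250) did not pass. SUZ12 (chromosome 17, 31937018 to 32001045) had 20.0, 20.3 and 17.3 TPM in siNC and 20.8, 20.2 and 17.2 TPM in siBCAT1 libraries, with replicate 3 lowest in both groups. Its log2 fold change was 0.01 (95% interval -0.23 to 0.26, adjusted p = 0.944). A transcribed pseudogene of it, SUZ12P1, was at 6.97 ± 0.841 and 7.28 ± 0.877 TPM (SD, n = 3 each). Reads shared between the copies could make the SUZ12 values uncertain, which was not tested. The pseudogenes EZH2P1 and EEDP1 were listed at 0 in every library. No gene with overlapping exons and a mean above 0 was annotated at any of the 10 loci.

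Of the Polycomb-like subunits, PHF19 (chromosome 9, 120855652 to 120894896, with 15 exons), whose Tudor domain binds methylated lysine 36 of histone H3, had 41.6, 55.3 and 55.0 TPM in siNC and 68.1, 68.8 and 76.0 TPM in siBCAT1 libraries. The groups did not overlap, and siNC replicate 1 stood below the other siNC libraries. The means were 50.6 ± 7.86 and 71.0 ± 4.37 TPM (SD, n = 3 each). PHF19 rose by 0.49 on the log2 scale, with a standard error of 0.12 (adjusted p = 0.0227). The adjusted p was 0.0542, 0.0573 and 0.0733 without siBCAT1 replicate 1, 2 or 3, 0.0622 under median-ratio scaling, 0.0511 under quantile normalization and 0.0675 with no filter, so the call was lost in 6 of the 13 alternatives. The range over all of them was 0.0153 to 0.0733.

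MTF2 (chromosome 1, 93079235 to 93139081) had 13.5, 14.7 and 11.8 TPM in siNC cells against 17.7, 15.5 and 16.2 TPM after siBCAT1. Every siBCAT1 library was above every siNC library, with a log2 fold change of 0.29 (95% interval 0.04 to 0.54) and an adjusted p of 0.0857.

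JARID2 (chromosome 6, 15246296 to 15522040), a catalytically inactive member of the Jumonji family, had 12.5, 11.03 and 13.3 TPM in siNC cells and 12.5, 11.4 and 12.4 TPM after siBCAT1. The groups overlapped (log2 fold change -0.02, 95% interval -0.25 to 0.21, adjusted p = 0.905). AEBP2 (chromosome 12, 19404045 to 19720801), a zinc finger subunit, had 24.1, 24.2 and 21.5 TPM in siNC cells and 22.3, 20.2 and 16.4 TPM after siBCAT1. It overlapped too, with siBCAT1 replicate 3 lowest (log2 fold change -0.24, 95% interval -0.53 to 0.04, adjusted p = 0.186). Without siBCAT1 replicate 3 the log2 fold change of AEBP2 was -0.12 (adjusted p = 0.440). The summed TPM of MTF2 and PHF19 was 1.51, 1.99 and 1.92 times that of JARID2 and AEBP2 in siNC and 2.47, 2.67 and 3.20 times in siBCAT1 libraries. These groups did not overlap (difference of mean log2 ratios 0.63, two-sided exact permutation p = 0.1, the smallest possible, and 0.2 after adjustment over the 4 ratios).

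**Figure D3:**
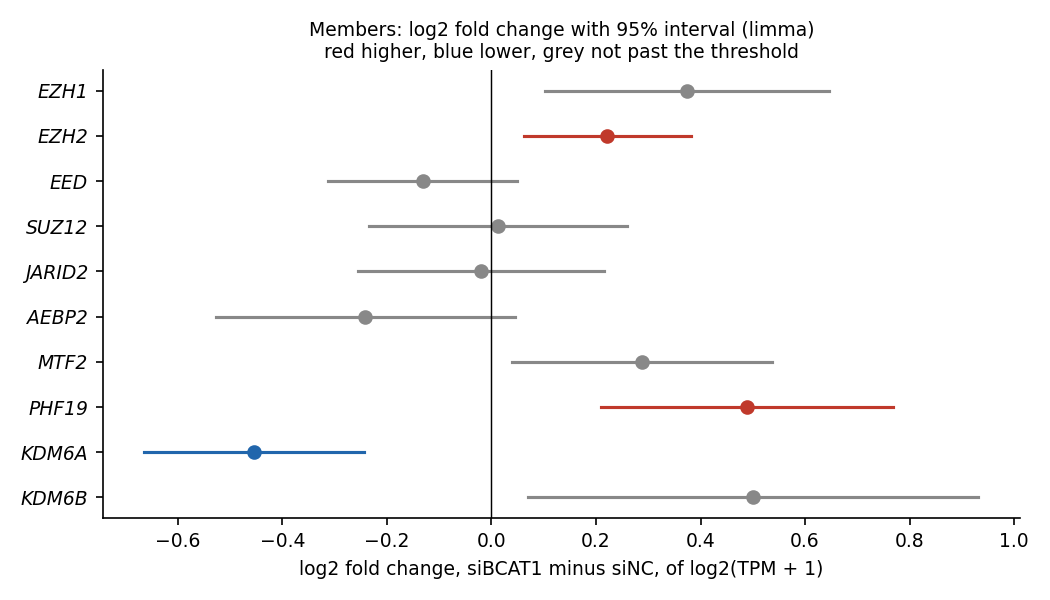
Log2 fold changes (horizontal axis, siBCAT1 minus siNC, of log2(TPM + 1)) of the 10 genes with 95% intervals from limma, red for higher, blue for lower and grey for genes that did not pass. KDM6A at -0.45 is the single blue point, and PHF19 at 0.49 and EZH2 at 0.22 are the red points.

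The groups did not overlap for 6 of the 10 members, against 44.1% of all tested genes. The median log2 fold change of the members was 0.12, against 0.04 for all tested genes. In siNC cells the order of levels was PHF19, EZH2, EED, AEBP2, SUZ12, KDM6A, MTF2, JARID2, EZH1 and KDM6B, from 50.6 down to 8.72 TPM. Neighbours whose ranges overlapped were EED and AEBP2, KDM6A and MTF2, MTF2 and JARID2, and EZH1 and KDM6B. In siBCAT1 cells KDM6A was last, below EZH1 in all 3 libraries, and KDM6B was seventh, with a range overlapping that of JARID2. The levels thus spanned from 9.62 TPM for KDM6A to 71.0 TPM for PHF19 in siBCAT1 cells.

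The 3′ untranslated regions of the members were searched for TTGAGCA, the 7-base word that pairs with the seed of siBCAT1-2, in one principal GENCODE 29 transcript per gene. It is present in 10.9% of 11672 tested genes and, of the members, in SUZ12. The site is shown within 30 bases, with the word in capitals, to place it beside the values of SUZ12:
SUZ12: cttgaatcattTTGAGCAattttgccctgt
SUZ12 had a log2 fold change of 0.01. KDM6A does not hold the word in the 1194 bases searched. The labels of the libraries do not themselves name the siRNA. AGACAAT, the word of the study's other BCAT1 siRNA, siBCAT1-1, is present in MTF2 and PHF19, in 8.44% of the tested genes and not in KDM6A. Coding regions and shorter matches to the seeds were not searched. Any part of the siRNA seeds in the changes of the members was not tested.

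Further subunits and partners of PRC2 were read from a list of 8 genes, of which 7 were tested and 1 was called (14.3%, against 27.1% of all tested genes). RBBP7, a histone-binding subunit, rose from 131 ± 3.51 to 153 ± 2.81 TPM (SD, n = 3 each; log2 fold change 0.22, adjusted p = 0.0176). This call was lost under 7 of 13 alternatives (adjusted p 0.0165 to 0.149 over the 13). Among them were siNC replicate 1 or 3 or siBCAT1 replicate 1 or 2 left out, and no trend (adjusted p = 0.0602). The log2 fold change of RBBP7 was 0.19 under median-ratio scaling (adjusted p = 0.0630) and 0.11 under quantile normalization (adjusted p = 0.149). The other 6, among them its paralog RBBP4 (log2 fold change -0.13) and the Polycomb-like gene PHF1 (0.41, adjusted p = 0.121), did not pass. The oncohistone-mimicking inhibitor EZHIP was listed at 0 in every library. RBBP4, PHF1 and EZHIP were named after their values were seen.

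Of 23 subunit genes of PRC1, which ubiquitinates histone H2A and works alongside PRC2, 4 were higher, 4 lower and 15 did not pass (median log2 fold change 0.06). The share called was 34.8%, against 27.1% of all tested genes. KDM2B, the CpG-binding subunit of a variant PRC1 and itself a demethylase of H3K36, went from 8.40, 8.36 and 6.26 TPM in siNC to 19.2, 17.2 and 18.1 TPM in siBCAT1 libraries (log2 fold change 1.15, standard error 0.13, adjusted p = 0.00110). Of its partners in that variant complex, PCGF1 fell from 24.6 ± 2.77 to 13.3 ± 1.48 TPM (SD, n = 3 each; log2 fold change -0.84, adjusted p = 0.00281) and the corepressor BCOR fell with a log2 fold change of -0.60 (adjusted p = 0.00824). BCORL1 (-0.53, adjusted p = 0.0632) and the ubiquitin ligases RING1 (-0.10, adjusted p = 0.378) and RNF2 (-0.24, adjusted p = 0.140) did not pass. BCOR, BCORL1, RING1 and RNF2 were named after their values were seen.

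The paralogs RYBP and YAF2, which occupy the same place in variant PRC1, moved in opposite directions. RYBP fell from 8.67 ± 0.390 to 3.90 ± 0.127 TPM (SD, n = 3 each; log2 fold change -0.98, adjusted p = 0.00103), and YAF2 rose from 7.40 ± 1.25 to 13.2 ± 0.963 TPM (SD, n = 3 each; log2 fold change 0.77, adjusted p = 0.00623). PCGF6 (0.73) rose and PCGF5 (-0.71) fell as well, with log2 fold changes in parentheses. The calls of KDM2B, PCGF1, RYBP, YAF2, PCGF6 and PCGF5 held under all 13 alternatives.

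Of the 9 genes of the H2A deubiquitinase complex and USP16, which remove the PRC1 mark, 8 were tested and none was called by limma, against 27.1% of all tested genes, with 0 at an unadjusted p under 0.05 and log2 fold changes from -0.14 to 0.39. In the list of KDM6A's partners in the MLL3/4 complexes and the H3K27 acetyltransferases, 2 of 11 were lower, none higher and 9 did not pass (18.2% called, against 27.1% of all tested genes). The lower genes were EP300, an acetyltransferase of H3K27 (30.5 ± 3.22 to 20.4 ± 3.24 TPM, SD, n = 3 each; log2 fold change -0.56, adjusted p = 0.0192), and KMT2D, an H3K4 methyltransferase that forms a complex with KDM6A (22.6 ± 2.94 to 16.6 ± 1.73 TPM, SD, n = 3 each; -0.42, adjusted p = 0.0392). The EP300 call was lost under 4 of 13 alternatives (no filter, and without siNC replicate 1 or siBCAT1 replicate 1 or 3, adjusted p up to 0.0662). The KMT2D call was lost under 6, the same 4 among them (adjusted p up to 0.117).

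Enzymes of other histone lysines give the comparison within the same class of genes. Of 22 methyltransferases, 4 were higher, 2 lower and 16 did not pass (27.3% called, against 27.1% of all tested genes, median log2 fold change 0.06). SETD7 (log2 fold change 0.84), the H3K79 methyltransferase DOT1L (0.50) and SETD1A (0.48) rose the most, and SETD1B (-0.44) and SMYD2 (-0.38) fell. SETD1A and SETD1B, alternative catalytic subunits of the same H3K4 methyltransferase complex, thus moved apart. Of 16 demethylases, 1 was higher, 2 lower and 13 did not pass (18.8% called, under the 27.1% of all tested genes, median -0.05). These counts leave out KDM2B, which was higher and was counted with PRC1. KDM2A, a paralog of KDM2B that acts on H3K36, rose from 28.6 ± 1.32 to 53.5 ± 2.91 TPM (SD, n = 3 each, log2 fold change 0.88, adjusted p = 0.000421). KDM5B (-0.48) and KDM4B (-0.37) fell. The calls of KDM5B, KDM4B and SMYD2 were lost under 5, 6 and 5 of 13 alternatives, each of them without siNC replicate 1 or 3 and without siBCAT1 replicate 1, and that of SETD1B without siNC replicate 1 (adjusted p = 0.0527).

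HOX genes are textbook targets of H3K27 trimethylation. Of the 39, 13 were listed at 0 in every library and 31 were below the filter. The 8 tested had a median log2 fold change of 0.18, with HOXC6 higher (1.63 ± 0.210 to 3.06 ± 0.421 TPM, SD, n = 3 each; log2 fold change 0.62, adjusted p = 0.0306), HOXC13 lower (5.66 ± 0.526 to 2.76 ± 0.403 TPM, SD, n = 3 each; -0.83, adjusted p = 0.00626) and 6 not past the threshold (25% called, against 27.1% of all tested genes). The HOXC6 call was lost with no filter and without any 1 library but siNC replicate 2 (adjusted p up to 0.103). The summed level of the 39 was 23.9 to 25.3 TPM in siNC and 22.8 to 27.1 TPM in siBCAT1 libraries. Histone marks were not measured in these libraries.

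Proliferation genes, whose expression EZH2 follows in many tumours, were read beside it. Of 25 genes, 11 were higher, 1 lower and 13 did not pass, so 48.0% were called, against 27.1% of all tested genes (median log2 fold change 0.20). The count of 12 called was 6 with no filter, and 7 without siNC replicate 1 or 3 or siBCAT1 replicate 1 or 2. Their summed level was 2369 to 2701 TPM in siNC and 2893 to 2985 TPM in siBCAT1 libraries. E2F1 (22.7 ± 4.51 to 45.7 ± 3.72 TPM, SD, n = 3 each; log2 fold change 0.99, adjusted p = 0.00292), MYBL2 (0.61) and the replication gene MCM2 (0.57) led the rise, and CCNE1 fell (-0.97, adjusted p = 0.00198). MKI67, named after its value was seen, had a log2 fold change of -0.03. The part of these genes in the rise of EZH2 and PHF19 was not tested.

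**Figure D4:**
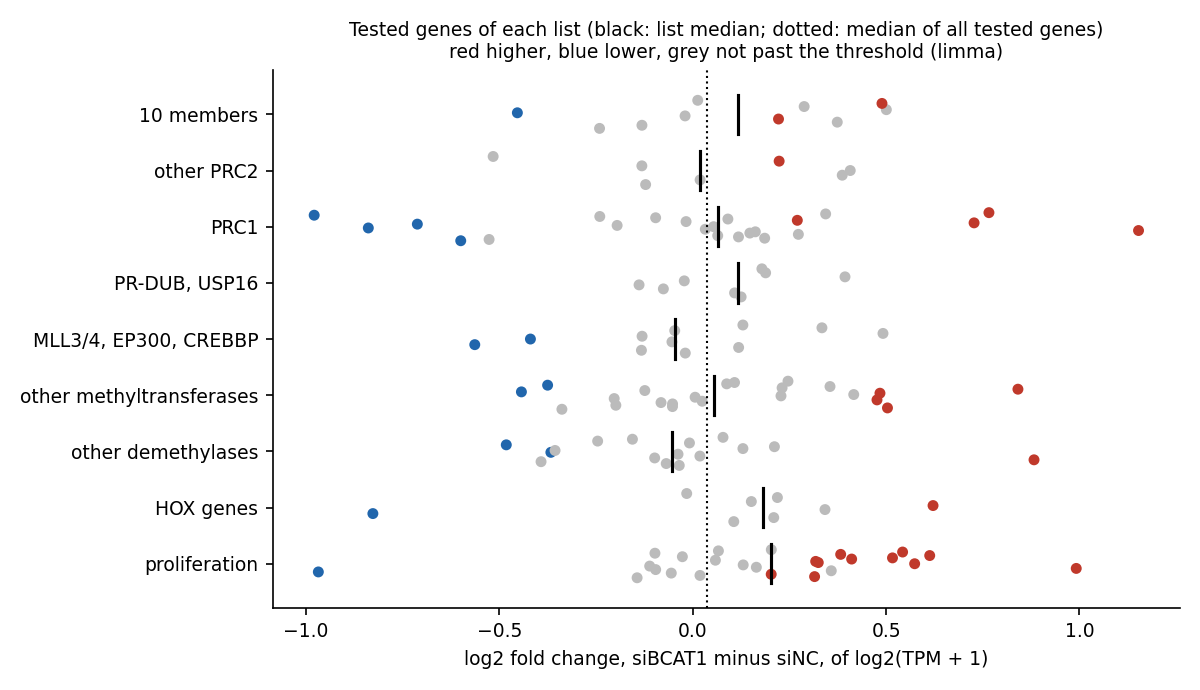
Log2 fold changes (horizontal axis, siBCAT1 minus siNC, of log2(TPM + 1)) of the tested genes of the members and the 8 pathway lists, without the cell type markers, 1 point per gene, red for higher, blue for lower and grey for genes that did not pass, with the list median as a black line and the median of all tested genes (0.04) dotted. The PRC1 genes run from -0.98 for RYBP to 1.15 for KDM2B, around a median of 0.06.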

How the data were processed

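RNA-seq of 6 libraries was analysed, 3 siNC and 3 siBCAT1, grouped by their titles. The authors deposited TPM values per gene and library with a gene length. Their processing notes name fastp, HISAT2, StringTie and GRCh38, without versions, and the annotation is not given in the sources used here. No replicates were pooled. The unit was read from the values, which carry decimals and sum to between 992512 and 995593.

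A filter kept the 14286 of 60664 genes whose mean over all libraries reached 1 TPM, and log2(TPM + 1) was fitted with limma 3.58.1 (trend, R 4.3.3, two-sided). An adjusted p (Benjamini-Hochberg) under 0.05 was called. Ratios of TPM were compared with exact permutation tests (scipy 1.17.1). The fit was tested on simulated data first. It called 74 of 100 genes changed by 1 on the log2 scale and 91 of 100 changed by 2, with 7 false calls. Smaller changes were not simulated, and those of the members lay between -0.45 and 0.50. The members and lists were chosen with earlier results of these data known. Beyond the members, each list's up to 3 largest rises and falls among called genes without overlap were named, with exceptions stated. Positions are from GENCODE 29 and promoters from RefSeq. Alternatives were other filters, pseudocount, scalings, no trend, a replicate block and leaving out each library.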

Additional observations from a re-analysis of the deposited data

How the results depend on the processing

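KDM6A and BCAT1 kept direction and call under all 13 alternatives, BCAT1 from -2.28 to -2.03. With no filter on low values, 2567 genes were called in all, 960 of them lower, with 1 member and 21 list genes, against 3865, 1483, 3 and 34. Leaving out each library in turn gave 2493 to 3783 genes called, 1501 to 2317 higher and 859 to 1466 lower, 1 to 3 members and 20 to 37 list genes. The fewest genes were left without siNC replicate 1, and KDM6A alone of the members without siBCAT1 replicate 1, 2 or 3. The log2 fold change of SUZ12 turned to -0.019 with median-ratio scaling and to -0.019 with quantile normalization. With a library left out it lay between -0.057 and 0.092, and that of JARID2 between -0.089 and 0.035. Of the called genes, 61.6% were higher, and 52.3% under quantile normalization. The causes were not tested. With a replicate block 4568 genes and 4 members were called, EZH1 (adjusted p = 0.0281) with the 3. Same-numbered libraries correlated at 0.0844, 0.102 and 0.124 in their deviations, each best with its own number, but the labels do not pair them. TPM give no depth.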
